A study of Mus musculus with 3 samples.

Results

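The cells described here are those that the authors' tables of follicular T cells left out of a given sample although they held much RNA. They were chosen by their UMIs (unique molecular identifiers, which count RNA molecules) and detected genes. Each was a barcode that neither table lists for its sample, with at least 500 UMIs and at least 4000 detected genes. Under 10% of its UMIs came from mitochondrial genes. There were 821 in the BKO sample, 295 in WT run 1 and 375 in WT run 2. They make 1196 distinct cells of 15392 that were annotated or had at least 500 UMIs. Of the WT run 2 cells 72 were annotated in run 1, and 303 were annotated in neither run. The number of genes per cell chose them, so their depth is a description and not a result, and the cells they are compared with are the annotated cells of the same sample.

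The study sorted follicular helper T cells (Tfh) and follicular regulatory T cells (Tfr) and counted their RNA with the 10x 3′ assay. BKO stands for mice with a knockout of Siglec-G in B cells and WT for wild-type mice, both taken 14 days after immunisation with liposomes carrying ovalbumin. How B cells were targeted, the age of the mice and whether animals were pooled are not given in the sources used here. Sorting used surface markers of Tfh and Tfr cells, and the knockout lies in cells that the sort leaves out.

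Tfh cells help B cells in the germinal centre through cytokines such as IL-21 and IL-4 and through CD40 ligand, and Tfr cells, which express Foxp3, restrain that help. A T cell that divides first copies its DNA in S phase and then builds the spindle and separates its chromosomes in G2 and M phase, and it holds more RNA as it grows. A droplet that catches a pair of cells also holds more RNA, and an upper limit on genes per cell is a usual filter against such doublets.

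The samples labelled WT replicate 1 and 2 hold the same cells sequenced in 2 runs. All 295 cells of run 1 were among the 375 of run 2, and their UMI totals in the runs correlated at r = 0.990 across cells. Each genotype therefore has 1 library, no test is possible, and no difference between BKO and WT has a replicate check. The labels put BKO and WT run 1 in batch 1 and WT run 2 in batch 2. All intervals given are exact ones at 95%, and they hold counting error alone. Among unannotated cells, 0 BKO barcodes recurred in WT, and 1 recurred among WT cells of any kind.

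The unannotated cells carried about 3 times the RNA of annotated cells. Median UMIs were 19581 in BKO, 16208 in WT run 1 and 24930 in WT run 2, against 6431, 4584 and 7527 in annotated cells, or 3.04, 3.54 and 3.31 times as many. Median genes were 4623, 4444 and 5374, against 2490, 2105 and 2846. Thinned to 2500 UMIs per cell, the unannotated cells showed a median of 1346, 1426 and 1410 genes and annotated cells one of 1321, 1384 and 1371. At equal depth the medians over all cells of each kind thus lay close together. The mitochondrial share was 3.20%, 3.11% and 3.16%, against 4.05%, 3.78% and 3.81%. They held 23.2%, 16.1% and 19.0% of all UMIs in these cells and the annotated ones together.

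The limit itself cut through a continuous range. In BKO the 162 unannotated cells with 4000 to 4199 genes had a median of 14809 UMIs, and the 192 annotated cells with 3800 to 3999 genes had one of 13759. In WT run 1 the 71 cells just inside had 13282 UMIs and the 82 just outside 12319. No unannotated barcode over 4000 genes in any sample had 10% or more mitochondrial UMIs. In WT run 2 the limit does not hold in the matrix: 500 annotated cells had 4000 or more genes there, and the least deep unannotated cell had 4660. The authors' table gives this run lower UMI totals than the matrix, with a median ratio of 0.659, and its highest number of genes is 3999. Of the 80 cells that met the rule in run 2 and did not in run 1, 72 were annotated in run 1, 43 as Tfh and 29 as Tfr. Over all 80 the median in run 1 was 3911 genes.

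Of unannotated and annotated cells together, the unannotated ones made up 8.87% in BKO (interval 8.30 to 9.47), 5.42% in WT run 1 (4.84 to 6.06) and 6.83% in WT run 2 (6.18 to 7.53). With BKO and WT run 2 thinned to the median depth of WT run 1, 366 BKO cells (4.16%) and 294 WT run 2 cells (5.43%) still had 4000 genes. The order of BKO and WT in this share was thus reversed after thinning, and the cause of their difference was not tested. Per the file headers the BKO counts also come from Cell Ranger 4 and the WT counts from cellranger 7.0.1, whose default settings differ on whether reads in introns count, and genotype and software cannot be told apart here.

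A large part of these cells carried transcripts of the cell cycle. Mki67, a protein of dividing cells (chromosome 7, 135689784 to 135716361, minus strand, GRCm38), stood at 268 CPM in BKO (UMIs of the gene among all UMIs of the summed cells, scaled to a total of 1000000; interval 260 to 276). It stood at 276 CPM in WT run 1, with an interval of 262 to 291, and at 272 CPM in WT run 2, with one of 262 to 283. Annotated cells held 18.4, 42.2 and 36.2 CPM. Top2a, the topoisomerase that untangles copied chromosomes (on the minus strand of chromosome 11, from 98992943 to 99024189), reached 380, 337 and 352 CPM, against 26.1, 48.6 and 46.6 CPM in annotated cells. The unannotated cells were higher by 14.2, 6.48 and 7.42 times for Mki67 and by 14.3, 6.89 and 7.47 times for Top2a. The 3 values of each gene in unannotated cells lay within a narrow range, and those of the WT runs come from the same library.

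At 2500 UMIs per cell 24.2%, 26.4% and 30.7% of unannotated cells had a Mki67 UMI, against 3.19%, 4.86% and 4.68% of annotated cells. For Top2a the shares were 26.7%, 32.5% and 27.7%, against 4.55%, 6.37% and 5.95%. Without thinning they were 49.1%, 52.9% and 57.6% for Mki67, against 8.43%, 8.75% and 12.1%, and 52.3%, 59.0% and 64.5% for Top2a, against 11.1%, 10.8% and 15.5%. BKO barcodes of 1 to 50 UMIs, which hold free RNA, carried 63.4 CPM of Mki67, above annotated cells and under the unannotated ones. WT matrices hold called cells only and give no such value.

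A share built on 3 genes of a list of 51 G2 and M phase genes separated the cells poorly, since 80.4%, 86.4% and 85.9% of unannotated cells passed it but so did 66.7%, 72.2% and 72.5% of annotated cells. A stricter count, chosen after its values were seen, asked for 12 genes of the S phase and the G2 and M phase lists together, 93 genes in all, in 2500 UMIs. It took 298 BKO cells (36.3%, interval 33.0 to 39.7), 119 cells of WT run 1 (40.3%, 34.7 to 46.2) and 156 of WT run 2 (41.6%, 36.6 to 46.8). Of annotated cells 1.10%, 2.54% and 1.98% passed. In the unannotated cells a peak near 5 genes was followed by a long, low and nearly level range up to 48 genes. The count cuts through a range, and 51, 22 and 27 of them had 10 to 13 genes. Of the 295 WT cells seen in both runs, 119 passed in run 1, 127 in run 2 and 115 in both.

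**Figure D1:**
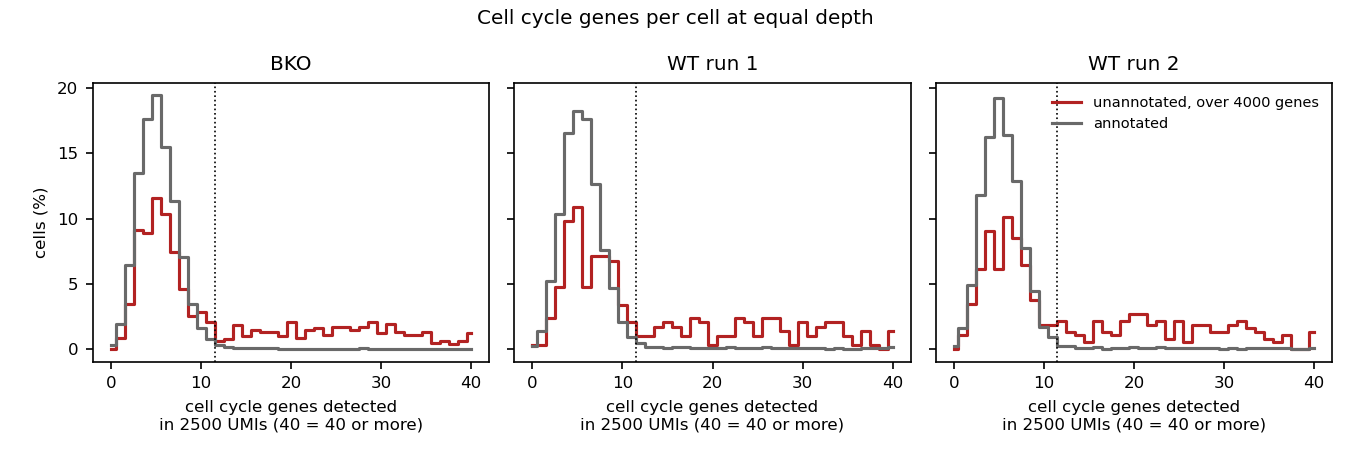
Number of genes of the S phase and the G2 and M phase lists detected in each cell after thinning to 2500 UMIs, as the share of cells, for unannotated cells over 4000 genes (red) and annotated cells (grey) of BKO, WT run 1 and WT run 2. Of unannotated cells 36.3%, 40.3% and 41.6% lie right of the dotted line at 12 genes, against 1.10%, 2.54% and 1.98% of annotated cells.

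Cells with 12 or more cell cycle genes will be called cycling below, and cells under 12 not cycling, as names for this count alone. Cycling cells were counted among the unannotated cells and the annotated cells deep enough to be thinned, and unannotated barcodes under the gene limit were left out. The unannotated cells made up 76.4% of this count in BKO (interval 71.9 to 80.5), 48.8% in WT run 1 (42.3 to 55.2) and 60.9% in WT run 2 (54.7 to 67.0). The WT runs hold the same cells at different depths, and the share differed between them. Whether depth moved the BKO share was not tested. Cycling cells were also the deepest, with 24763, 18408 and 28326 UMIs in the median, against 17416, 14883 and 23218 in the other unannotated cells. Just inside the limit 16% of BKO cells and 23.9% of WT run 1 cells were cycling, and just outside it 12% and 18.3% were.

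Across all genes, 365 of 6636 (5.50%) were at least 1.5 times higher in unannotated than in annotated cells in all 3 samples, and 76 (1.15%) were lower. Genes entered at a mean of at least 20 CPM over the groups, and log2 ratios carry 0.5 CPM. The median gene stood at -0.03 in BKO, -0.01 in WT run 1 and -0.02 in WT run 2. Of the 365 genes 61 were on the S phase and the G2 and M phase lists and 31 were histone genes, of 35 histone genes measured.

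Of 33 S phase genes measured, 30 were higher and 0 lower, with median log2 ratios of 1.85, 1.87 and 1.78. Clspn, which relays the signal of stalled replication forks, stood at 74.6, 103 and 84.0 CPM, against 3.09, 8.80 and 6.60 CPM in annotated cells. Rrm2, a subunit of the enzyme that makes the building blocks of DNA, stood at 104, 87.6 and 81.7 CPM, against 5.36, 6.95 and 7.39 CPM. Uhrf1, which carries DNA methylation over to the new strand, stood at 54.2, 59.6 and 55.4 CPM, against 3.53, 5.55 and 5.38 CPM. Pcna, the sliding clamp of DNA polymerase, was higher by less, at 231, 238 and 224 CPM against 64.0, 62.5 and 64.7 CPM.

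Of 36 G2 and M phase genes measured, 31 were higher and 0 lower, with medians of 2.94, 2.25 and 2.36. Kif11, a motor of the spindle, stood at 91.4, 93.6 and 90.8 CPM, against 3.54, 10.5 and 9.94 CPM. Cdk1, the kinase that starts mitosis, stood at 76.5, 59.0 and 56.8 CPM, against 4.17, 7.65 and 6.77 CPM. Nusap1, a spindle protein, stood at 136, 105 and 118 CPM, against 4.82, 14.1 and 11.5 CPM. Ccnb2, a cyclin of mitosis, stood at 75.9, 56.7 and 62.9 CPM, against 5.99, 10.2 and 8.56 CPM.

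The genes ranked first by their smallest ratio were Esco2, Hist1h2an, Pclaf, Hist1h2bm, Hist1h1b, Neil3, Hist1h1a, Clspn, Kif4 and Hist1h3c. Esco2, which locks sister chromatids together in S phase, had log2 ratios of 5.03 in BKO, 3.88 in WT run 1 and 4.07 in WT run 2. Pclaf, a partner of the clamp Pcna, stood at 310, 273 and 260 CPM, against 9.50, 20.9 and 18 CPM. Hist1h1b, a linker histone, stood at 945, 1046 and 866 CPM, against 20.4, 85.7 and 55.2 CPM. Histone genes have near-identical copies among which reads can be split, so values of single histone genes are uncertain.

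The promoters of the 3 called genes of each list with the largest smallest ratio are shown because, of lists with 3 or more measured genes, these 2 had the highest median ratios. Of the 365 higher genes 273 were neither on these lists nor histone genes. Each is 250 bases before to 50 after the start, 5′ to 3′ on the strand of the gene, from RefSeq on GRCm38.p6, with the first of several starts used where a gene has more. Capitals mark 3 kinds of motif on either strand. The first is CCAAT, the box bound by NF-Y, and another is TTTGAA, the element known as CHR in G2 and M phase genes. The others are forms of the E2F site, searched as TTTCCCGC, as TTTGGCGC, as TTTCGCGC and as TTTGCCGC. The G2 and M phase genes come first.

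Kif11 (chr19:37376132-37376431, plus strand): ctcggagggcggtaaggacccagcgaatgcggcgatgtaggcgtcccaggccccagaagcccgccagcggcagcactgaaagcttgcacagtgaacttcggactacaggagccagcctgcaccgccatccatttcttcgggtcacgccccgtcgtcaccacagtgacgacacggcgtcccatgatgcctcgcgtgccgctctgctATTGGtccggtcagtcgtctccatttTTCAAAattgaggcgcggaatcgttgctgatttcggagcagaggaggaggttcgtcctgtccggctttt

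Cdk1 (chr10:69352863-69353162, minus strand): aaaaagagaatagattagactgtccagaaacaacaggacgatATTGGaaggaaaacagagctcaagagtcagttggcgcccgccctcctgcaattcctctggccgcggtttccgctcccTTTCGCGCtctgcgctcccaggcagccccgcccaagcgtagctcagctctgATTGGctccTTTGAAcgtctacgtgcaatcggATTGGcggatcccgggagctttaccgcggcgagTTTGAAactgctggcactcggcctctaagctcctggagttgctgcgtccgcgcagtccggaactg

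Nusap1 (chr2:119618048-119618347, plus strand): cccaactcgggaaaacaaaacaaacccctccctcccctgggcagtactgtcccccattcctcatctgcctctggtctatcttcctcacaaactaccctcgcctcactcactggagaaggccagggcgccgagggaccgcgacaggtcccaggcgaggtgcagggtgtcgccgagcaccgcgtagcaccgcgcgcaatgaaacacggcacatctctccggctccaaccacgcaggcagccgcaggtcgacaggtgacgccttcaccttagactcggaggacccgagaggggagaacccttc

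Clspn (chr4:126556730-126557029, plus strand): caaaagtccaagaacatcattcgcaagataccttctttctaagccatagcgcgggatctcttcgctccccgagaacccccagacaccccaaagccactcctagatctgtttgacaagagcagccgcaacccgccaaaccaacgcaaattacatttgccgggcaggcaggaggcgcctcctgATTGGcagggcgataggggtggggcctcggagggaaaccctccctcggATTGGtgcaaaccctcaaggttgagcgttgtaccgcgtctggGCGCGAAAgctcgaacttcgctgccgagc

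Rrm2 (chr12:24708004-24708303, plus strand): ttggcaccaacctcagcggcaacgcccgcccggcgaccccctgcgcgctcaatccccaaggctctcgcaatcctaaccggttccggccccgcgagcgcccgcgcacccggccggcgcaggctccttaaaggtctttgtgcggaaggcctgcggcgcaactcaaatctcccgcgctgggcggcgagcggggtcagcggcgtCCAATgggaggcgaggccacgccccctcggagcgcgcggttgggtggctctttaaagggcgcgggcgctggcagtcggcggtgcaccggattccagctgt

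Uhrf1 (chr17:56303087-56303386, plus strand): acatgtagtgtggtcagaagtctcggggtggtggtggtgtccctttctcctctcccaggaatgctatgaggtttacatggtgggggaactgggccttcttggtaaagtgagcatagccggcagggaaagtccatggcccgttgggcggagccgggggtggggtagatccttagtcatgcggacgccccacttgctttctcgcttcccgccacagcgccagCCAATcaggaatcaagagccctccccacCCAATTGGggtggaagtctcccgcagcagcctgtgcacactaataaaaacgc

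Promoters were at hand for 29 of the 31 called G2 and M phase genes and 22 of the 30 called S phase genes. TTTGAA lay in 22 of 29 promoters of the called G2 and M phase genes (75.9%) and in 3 of 22 of the S phase genes (13.6%), against 18.1% of all 27025 promoters and 11.7% of those of measured genes. CCAAT lay in 79.3% and 72.7%, against 37.9% of all promoters and 39.0% of those of measured genes. At least 1 of the E2F forms lay in 6.90% and 36.4%, against 2.32% and 4.87%. The Nusap1 window holds none of these letters. A match is a description of letters and shows no binding.

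Genes of growth were higher in the unannotated cells as well. Of 13 genes of the Myc and ribosome biogenesis list 11 were higher and 0 lower, with median log2 ratios of 0.77, 0.90 and 0.82. Npm1, a nucleolar chaperone, stood at 1004, 1069.5 and 985 CPM, against 564, 543 and 516 CPM in annotated cells. Ncl, the nucleolar protein nucleolin, stood at 645, 762 and 687 CPM, against 397, 405 and 392 CPM. Of 13 glycolysis genes 5 were higher, Tpi1, Pgk1, Pgam1, Pkm and Ldha, and 0 lower, with medians of 0.42, 0.49 and 0.46. Ldha, which makes lactate, stood at 389, 343 and 330 CPM, against 242, 197 and 197 CPM. Of 6 heat shock and dissociation genes the chaperones Hspa8, Hsp90aa1 and Hsp90ab1 were higher, and Zfp36, which speeds the decay of cytokine transcripts, was lower.

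In the cycling cells Npm1 stood at 1264, 1423 and 1391 CPM and in the other unannotated cells at 796, 780 and 639 CPM. Cdk4, the kinase that drives cells out of G1, was the 1 higher gene of 11 measured on the list of G1 cyclins, inhibitors and quiescence genes, at 111, 98.6 and 89.7 CPM against 58.5, 48.3 and 46.1 CPM. Btg1, which holds back proliferation, was the 1 lower gene, at 464, 317 and 403 CPM against 912, 606 and 731 CPM.

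A few genes of follicular helper function were lower. Of 16 Tfh genes measured 3 were lower, Il4, Cd40lg and Sostdc1, and 0 higher, with medians of -0.44, -0.36 and -0.41. Of all genes 1.15% were lower. The 12 general T cell genes had medians of -0.33 in each sample, so a lower median was not particular to the Tfh list. Il4, whose product drives B cells to switch antibody class, was at 35.1, 42.4 and 40.5 CPM, against 64.1, 71.7 and 76.5 CPM. Cd40lg, through which T cells engage CD40, was at 106, 83.7 and 81.0 CPM, against 182, 146 and 154 CPM. In the cycling cells Il4 stood at 8.86, 31.3 and 29.5 CPM and in the other unannotated cells at 56.0, 51.4 and 49.9 CPM. Il21 did not meet the rule, at 49.4, 29.4 and 26.9 CPM against 56.0, 33.8 and 36.5 CPM. Set against annotated cells of 3000 or more genes, 11 genes of any kind were lower in place of 76.

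The 10 genes ranked first on the lower side were Lmo4, H2-Q2, Rflnb, Cdk8, Cmss1, Pde2a, Tnc, Ifi208, Sostdc1 and Asb2. Lmo4, an adaptor of transcription complexes, had log2 ratios of -1.22, -1.45 and -1.32. Il7r, the receptor of the survival cytokine IL-7, was lower at 54.9, 90.1 and 88.1 CPM against 101, 139 and 135 CPM. Cd69, an early activation marker that keeps T cells in tissue, was lower at 43.4, 31.5 and 32.6 CPM against 67.9, 58.6 and 58.7 CPM. Of 9 naive and memory genes and 12 TCR response genes these were the only ones that met the rule. Of 6 effector chemokine and Th1 genes Xcl1, a chemokine, was higher and Cxcr6, a chemokine receptor, was lower, and of 8 type I interferon genes 0 met it. H2-Q2 has near-identical relatives and its call is uncertain.

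The counts depended on which cells were compared. With the unannotated cells that were not cycling, 23 genes were higher than in all annotated cells and 12 lower. With all unannotated cells set against annotated cells of 3000 or more genes, 255 were higher and 11 lower. With the cells that were not cycling and annotated cells with 3000 or more genes and under 12 cell cycle genes, 4 genes were higher and 0 lower of 6608. The 4 were Lyz2, Mcm3, Dgki and Penk. Taking cells by the count of cell cycle genes lowers those genes by construction and did not remove them all. In this last comparison, which changes both the cells and what they are set against, the S phase median was still 0.27, 0.49 and 0.31. The Myc and ribosome biogenesis median was 0.31, 0.15 and 0.13 and the Tfh median -0.09, -0.02 and -0.07. The median of all genes was 0.04, 0.05 and 0.06 there. Without thinning, 26.2%, 25.6% and 35.2% of the unannotated cells that were not cycling had a Mki67 UMI. The comparisons of cells that were not cycling were added after the data had been seen.

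**Figure D2:**
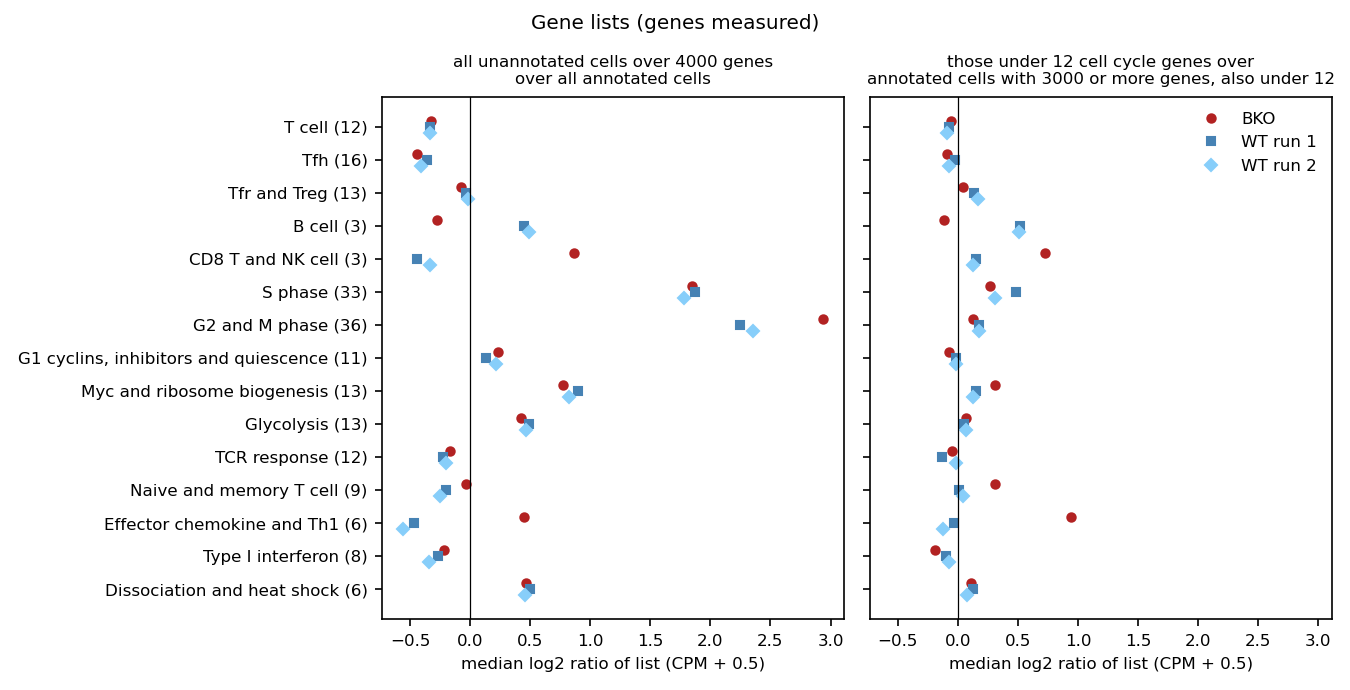
Median log2 ratio of each gene list with at least 3 measured genes (number in brackets), for all unannotated cells over all annotated cells (left) and for unannotated cells under 12 cell cycle genes over annotated cells with 3000 or more genes and under 12 (right), by sample. S phase and G2 and M phase medians run from 1.78 to 2.94 on the left and from 0.12 to 0.49 on the right.

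The unannotated cells carried the markers of T cells. All of them had at least 2 of 12 T cell markers in 2500 UMIs, as did all annotated cells but 2 in BKO. A droplet that holds a T cell and another cell also passes this rule, so it does not tell such a droplet from a T cell alone. Cd3e, a chain of the T cell receptor complex, stood at 723, 531 and 628 CPM, against 877, 673 and 769 CPM in annotated cells, and Cd4, the coreceptor of helper cells, at 270, 293 and 284 CPM, against 334, 368 and 369 CPM. None of the 12 T cell genes met the rule in either direction, and their medians were -0.33 in each sample. In the unannotated cells that were not cycling, against annotated cells with 3000 or more genes, the medians were -0.05, -0.07 and -0.09. Cd8a had 0 UMIs in the unannotated cells of all 3 samples. Cd8b1, the gene of the other CD8 chain, had a UMI in 14.1%, 13.2% and 16.8% of them without thinning, against 4.51%, 4.51% and 6.12% of annotated cells, and at 2500 UMIs in 1.95%, 2.03% and 1.87%, against 1.76%, 2.36% and 1.90%.

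The share of these cells with Foxp3 moved with depth. Without thinning 48.7% of BKO cells, 57.6% of WT run 1 cells and 66.7% of WT run 2 cells had a Foxp3 UMI. At 2500 UMIs the shares were 15.3% (interval 12.9 to 18), 21.7% (17.1 to 26.8) and 19.2% (15.3 to 23.6). All annotated cells together stood at 14.5%, 18.2% and 19.3%, within these intervals, annotated Tfr at 59.4%, 64.6% and 57.8%, and annotated Tfh at 0.111%, 0.0283% and 3.79%. The annotated classes were split on Foxp3 itself, since each annotated Tfr cell has a UMI of it. As summed RNA Foxp3 stood at 81.8, 93.0 and 101 CPM, against 91.4, 110 and 115 CPM in annotated cells. BKO barcodes of 1 to 50 UMIs carried 112 CPM.

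The Foxp3 share was lower in cycling cells than in the others, at 9.06%, 15.1% and 14.1% against 18.9%, 26.1% and 22.8% at 2500 UMIs. The intervals of the pair overlap in the WT runs (9.22 to 22.8 against 19.8 to 33.3 in run 1) and do not in BKO (6.06 to 12.9 against 15.7 to 22.6). A lower share was not particular to Foxp3. At 5000 UMIs Foxp3 was found in 19.8%, 24.4% and 30.8% of cycling cells, against 32.7%, 38.6% and 36.5% of the others. Cd4 was found in 57.05%, 61.3% and 62.8%, against 76.5%, 77.8% and 81.7%. Shares of Cd3e, Cd40lg, Il4, Il21 and Trbc1 were also lower in cycling cells of each sample. Those of Trbc2 and Cd8b1 were not lower in BKO. Whether cycling cells held fewer Tfr cells was not tested. Of 13 genes of the Tfr and Treg list 0 were higher and 0 lower in unannotated over annotated cells, with medians of -0.08, -0.04 and -0.02. Cells with both a Foxp3 and an Il21 UMI made up 11.8%, 8.47% and 10.1% without thinning, against 1.30%, 0.875% and 1.70% of annotated cells. At 2500 UMIs the shares were 0.487%, 0.678% and 0.267%, against 0.335%, 0.285% and 0.178%. Those of the unannotated cells rest on very few cells of 821, 295 and 375.

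**Figure D3:**
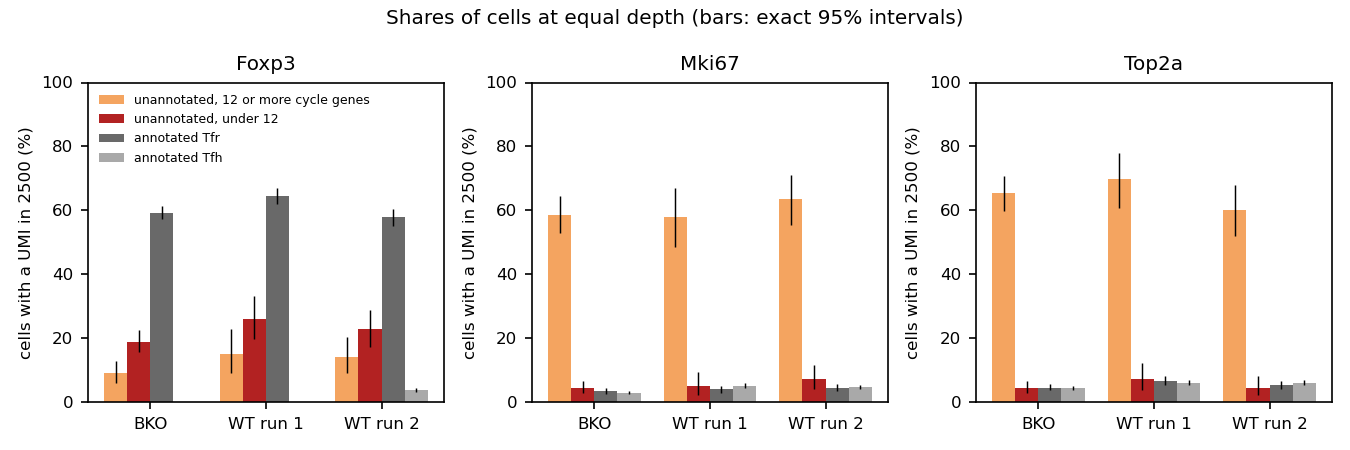
Share of cells with a Foxp3, Mki67 or Top2a UMI after thinning to 2500 UMIs in cycling and other unannotated cells and in annotated Tfr and Tfh cells, by sample, with exact 95% intervals. Foxp3 shares of unannotated cells (9.06% to 26.1%) lie between those of Tfh and Tfr cells, and 58.0% to 69.7% of cycling cells, which were taken partly by these genes, have a Mki67 or Top2a UMI.

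Signs of more than 1 cell in a droplet were looked at in several ways. A T cell makes its receptor beta chain with 1 of the constant genes Trbc1 and Trbc2 in most cases. With at least 2 UMIs of both, 75.6%, 79.3% and 84.0% of unannotated cells passed, but so did 60.2%, 52.1% and 61.1% of annotated cells and 64.9%, 71.5% and 66.4% of annotated cells with 3000 or more genes. At 2500 UMIs, with 1 UMI of each, the shares were 60.8%, 65.4% and 64.0%, against 58.1%, 56.0% and 57.7%. The sign is thus common in every group, and it separates little.

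A count chosen after this had been seen drew 10 Trbc UMIs from each cell and asked for 3 to 7 from Trbc1. It took 47.6%, 53.7% and 47.0% of unannotated cells that were not cycling and 35.7%, 38.3% and 41.7% of cycling ones. Annotated cells stood at 33.0%, 35.8% and 34.2%, and those with 3000 or more genes at 33.5%, 45.0% and 36.7%. Cells with 0 of 10 from Trbc1 made up 23.4%, 20.6% and 17.8% of the unannotated cells that were not cycling and 33.9%, 26.9% and 31.8% of annotated cells with 3000 or more genes. Annotated cells with 3000 or more genes that were not cycling stood at 34.0%, 46.7% and 36.7%. Of the groups given, the unannotated cells that were not cycling had the highest share of mixed use in each sample. In WT run 1 their interval (46.0 to 61.3) overlapped that of the annotated cells of 3000 or more genes that were not cycling (42.4 to 51.0). Intervals of cycling and other unannotated cells overlapped in both WT runs. BKO barcodes of 1 to 50 UMIs carried 1184 CPM of Trbc1 and 2359 CPM of Trbc2, against 892 and 1884 CPM in unannotated cells, so free RNA holds both genes, and its part in these shares was not tested.

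**Figure D4:**
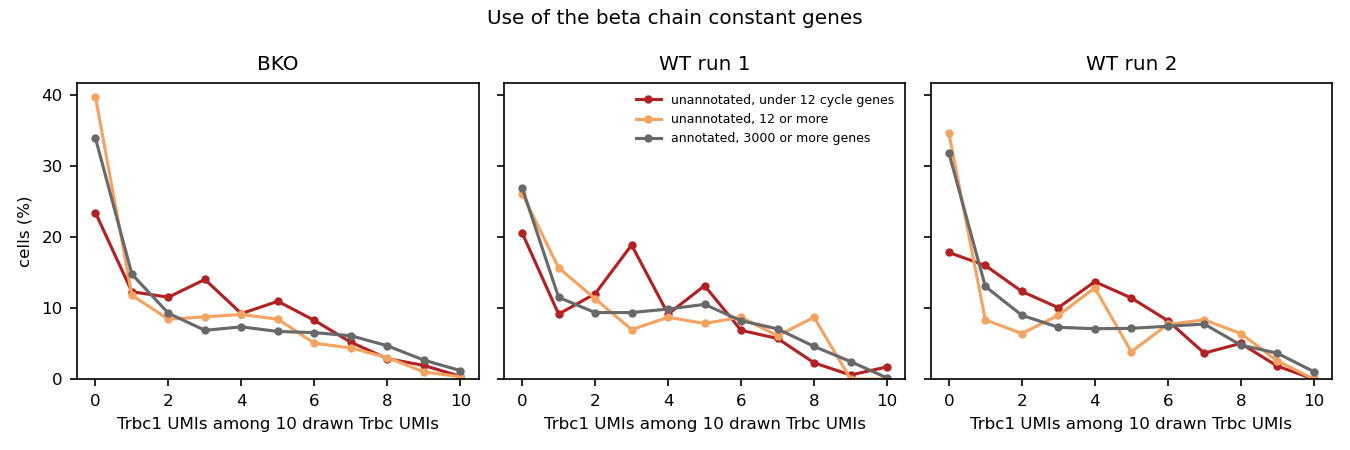
Number of Trbc1 UMIs among 10 Trbc UMIs drawn from each cell, as the share of cells, for unannotated cells that were not cycling (red), cycling ones (orange) and annotated cells with 3000 or more genes (grey). Cells with 0 are rarer among unannotated cells that were not cycling (17.8% to 23.4%) than among annotated cells (26.9% to 33.9%).

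Scrublet, which scores each cell by its likeness to simulated doublets, marked 0 cells in any sample and so has not worked as a caller here. Its median score was 0.129, 0.147 and 0.138 in unannotated cells that were not cycling, 0.0857, 0.0934 and 0.0868 in cycling ones, and 0.0798, 0.0982 and 0.0708 in annotated cells with 3000 or more genes. At 2500 UMIs the unannotated cells that were not cycling had a median of 1378, 1450 and 1439 genes, and cycling ones had 1308, 1384 and 1362.5. Annotated cells with 3000 or more genes that were not cycling had 1346, 1405.5 and 1378. The cause of these differences was not tested. Cells with Cd4 and a CD8 gene made up 0.853%, 0.678% and 0.267% of all unannotated cells at 2500 UMIs, against 0.826%, 1.36% and 1.01% of annotated cells. How many droplets held a pair of T cells was not tested.

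Some transcripts of B, plasma and myeloid cells lay mostly in few barcodes, and others were spread. Ighm, the heavy chain of IgM, had a UMI in 771 of 821 BKO, 272 of 295 WT run 1 and 350 of 375 WT run 2 cells, at 483, 612 and 572 CPM against 587, 461 and 477 CPM in annotated cells, and BKO barcodes of 1 to 50 UMIs carried 586 CPM. Cd74, the invariant chain of antigen presentation, had a UMI in 294, 143 and 215 cells. Igkc, an antibody light chain, gave 592 UMIs in BKO, in 130 cells, with at most 27 in 1 barcode. In WT run 1 it gave 3310 UMIs, of which 3176 lay in 1 barcode, and in WT run 2 4924, of which 4654 lay in the same barcode. That barcode also held 349 UMIs of Jchain, the joining chain of secreted antibody, 951 of Ighm and 14 of Cd3e in run 1. Cd79a, which B cell receptors need to signal, had 12, 26 and 54 UMIs, with 21 of the 26 in 1 barcode that was not this one. Iglc1, another light chain, had 841 of its 845 UMIs of WT run 1 in 1 barcode, also not this one.

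Lyz2, a lysozyme of myeloid cells, was called higher in the unannotated cells at 5.51, 114 and 93.8 CPM, against 0.848, 1.66 and 1.43 CPM. In WT run 1, 3 barcodes held 99.8% of its UMIs, and in BKO 3 held 86.7%. At 2500 UMIs, 18.4%, 19.0% and 17.1% of unannotated cells had 2 B cell markers, against 19.2%, 17.8% and 17.1% of annotated cells. Summed CPM of the 19 B cell markers was 623, 1400 and 1200, against 795, 702 and 712, and that of the 14 myeloid markers 105, 249 and 212, against 118, 98.2 and 91.7.

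Between genotypes, 33 of 6686 genes (0.494%) stood above each WT run by 1.5 times or more in unannotated BKO cells, and 179 (2.68%) were lower. Genotype and counting software, Cell Ranger 4 for BKO and cellranger 7.0.1 for WT, cannot be told apart in any BKO over WT ratio. Over all genes the median log2 ratio was -0.10, and with TMM scaling 69 were higher and 68 lower. The higher ones made up 50.4% of called genes with that scaling and 15.6% without it. Against WT run 1 alone 71 were higher. In annotated cells 30 were higher and 145 lower, and these share their samples with the unannotated ones, so the values below stand side by side.

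Ly6a, a surface protein that interferon induces, ranked first on the higher side. It reached 236 CPM in BKO, with an interval of 229 to 243. WT run 1 had 98.2 CPM (89.9 to 107) and WT run 2 had 95.6 CPM (89.7 to 102), which puts BKO 2.43 times higher. Spp1, Apoe, Cacna1d, Lgals3, Nfkbia, Sccpdh, Atp1b1, Isg15 and Ccnb1 followed. For Apoe and Spp1, 57.7% and 56.5% of the BKO UMIs lay in 1 barcode each. Without barcodes of 50 or more UMIs of Igkc, Lyz2 or Apoe (3 in BKO, 4 in WT run 1 and 5 in WT run 2), 32 genes were higher and 174 lower.

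Il21, the main helper cytokine, met the rule at 49.4 CPM in BKO, against 29.4 and 26.9 CPM in the WT runs (log2 ratio 0.80). Lag3, an inhibitory receptor, stood at 88.1 CPM, against 47.0 and 54.1 CPM (0.80), and Nfkbia, the inhibitor of NF-κB that its own pathway induces, at 253 CPM, against 144 and 145 CPM (0.80). In annotated cells their ratios were 0.67, 0.77 and 0.56. Of 16 Tfh genes Il21 was the 1 higher and 0 were lower, and of 13 Tfr and Treg genes Lag3 was higher and Il2ra and Entpd1 were lower. Of 7 type I interferon genes Ly6a and Isg15 were higher, and Cxcr3, a chemokine receptor, was higher on the effector chemokine and Th1 list, on which the other 3 of 4 measured genes, Ccl5, Xcl1 and Id2, were lower. Of 9 naive and memory genes Il7r and Bach2 were lower.

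The cell cycle lists differed little between genotypes in these cells. Of 40 S phase genes 0 were higher and 0 lower, with a median log2 ratio of -0.11, and of 44 G2 and M phase genes Birc5, an inhibitor of cell death that acts at the centromere, was higher and 0 were lower, with a median of 0.08. In annotated cells these medians were -0.25 and -0.61. Over all genes of the unannotated cells 0.494% were higher and 2.68% lower, with a median of -0.10, so few calls would fall on lists of this size. Mki67 had a log2 ratio of -0.03 in unannotated cells and -1.07 in annotated ones, and Top2a 0.14 and -0.86. Ccnb1, a cyclin of mitosis that is on neither list, was higher at 33.4 CPM in BKO, against 18.2 and 19.3 CPM in WT.

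Among the genes ranked first on the lower side were Jchain, Ccl1, Lyz2, Ccl5, Ctla2a, Gzmk, Nkg7, Actg2 and Nebl. Jchain and Ccl1 rest on 1 barcode of WT run 1, with 94.3% and 95.6% of their UMIs. Ccl5, a chemokine of effector T cells, stood at 61.8 CPM in BKO (interval 58.2 to 65.6), against 710 CPM (687 to 733) and 704 CPM (688 to 721), 11.4 times lower in BKO. Its UMIs lay in 67 BKO, 88 WT run 1 and 177 WT run 2 cells. The 3 barcodes richest in it held 70.2% of them in BKO, against 24.0% and 20.5% in the WT runs. Of the 3 measured CD8 T and NK cell genes all 3 were lower. These were Nkg7, a protein of cytotoxic granules (49.9 CPM, against 144 and 139 CPM), Gzmk, a granzyme (10.3 CPM, against 39.3 and 35.5 CPM), and Eomes, a factor of cytotoxic cells (22.8 CPM, against 60.5 and 63.6 CPM). In annotated cells the log2 ratios were -5.66 for Ccl5, -2.74 for Nkg7, -1.73 for Gzmk and -2.46 for Eomes.

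**Figure D5:**
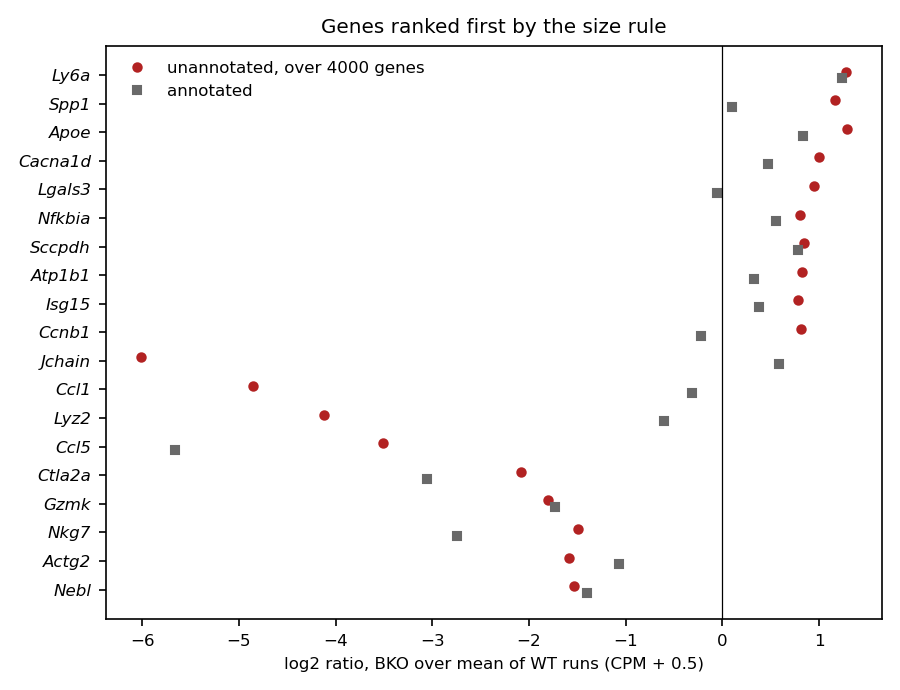
Log2 ratio of BKO over the mean of the WT runs (CPM + 0.5) in unannotated cells over 4000 genes (red circles) and in annotated cells (grey squares), for genes ranked first in each direction. Ly6a lies at 1.28 and 1.24, and Ccl5 at -3.51 and -5.66.

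Set beside the authors' subclusters, the cycling unannotated cells correlated most with Tfh subcluster 8, at r = 0.926 in BKO, 0.930 in WT run 1 and 0.932 in WT run 2 across genes, which are not independent. The next was Tfr subcluster 2, at 0.772, 0.792 and 0.794. Since these cells were taken by cell cycle genes, the choice itself favours a subcluster rich in them, and all unannotated cells together gave 0.900, 0.896 and 0.905 with subcluster 8 and 0.883, 0.886 and 0.891 with Tfr subcluster 2. Subcluster 8 is small, with 46, 64 and 53 cells, and carries 406, 927 and 883 CPM of Mki67. The unannotated cells that were not cycling correlated most with Tfh subcluster 1, at 0.972, 0.960 and 0.968, followed in BKO by Tfh subcluster 3 (0.968) and in the WT runs by Tfr subcluster 0 (0.955 and 0.964).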

How the data were processed

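Raw UMI counts per gene and barcode were used as deposited by the authors, with their tables of Tfh and Tfr cells matched by barcode. Per the file headers the BKO counts come from Cell Ranger 4 and the WT counts from cellranger 7.0.1, and the genome is mm10 per the submitters' processing notes. Whether introns were counted and how doublets were treated are not given in the sources used here. In BKO the matrix holds 1275404 barcodes and 85225125 UMIs, and the WT matrices 5554 and 5721 called cells with 32518538 and 54059000 UMIs.

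The cells and gene lists were chosen with earlier results of these data known. UMIs were summed per sample and group and scaled as CPM. A gene entered when its mean reached 20 CPM, and was called at a ratio of 1.5, with 0.5 CPM added, the same way in all samples, or with BKO beyond both WT runs. With 1 library per genotype no count model was fitted. Shares of cells were taken after thinning to 2500 UMIs, which left out 0 unannotated and 75, 230 and 58 annotated cells of BKO, WT run 1 and WT run 2. Named are the 10 called genes per direction with the largest smallest ratio (without receptor segments, unnamed models, ribosomal and mitochondrial genes), called list members, the 4 of highest CPM per list, and Mki67, Top2a, Foxp3, Cd3e, Cd4, Cd79a, Trbc1 and Trbc2. Not every gene under this rule is printed, and some items are not reported here; Mcm3, Dgki, Penk and Iglc1 were named after their values were seen. Gene positions came from GENCODE vM21 (99.6% of 32285 features found). Tools were Python 3.11.15, scanpy 1.11.5 and edgeR 4.0.16 (TMM factors only).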

Additional observations from a re-analysis of the deposited data

Results flagged for a closer look

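In 3 genes the unannotated and annotated cells differed in opposite directions in BKO and in WT, by at least 1.5 times each; the difference between the genotypes was not tested. Ccl5 stood at 61.8 CPM in unannotated and 31.2 CPM in annotated BKO cells, and at 710 and 704 CPM in unannotated against 1652 and 1552 CPM in annotated cells of the WT runs, a difference in log2 ratios of 2.15. In BKO 70.2% of the Ccl5 UMIs of unannotated cells lay in 3 barcodes. Ccl4, a related chemokine, stood at 9.79 CPM against 0.983 CPM in BKO and at 18.4 and 19.9 CPM against 77.8 and 73.3 CPM in the WT runs, a difference of 4.75, with all 174 BKO UMIs in 3 barcodes. Jchain stood at 0.506 CPM against 7.87 CPM in BKO and at 71.6 and 57.3 CPM against 5.10 and 5.04 CPM in the WT runs, a difference of -6.59, with 94.3% of the WT run 1 UMIs in 1 barcode.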

How the results depend on the processing

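Values are given for BKO, WT run 1 and WT run 2 where 3 stand together. No paired analysis was possible because each genotype has 1 library. A minimum of 4500 genes left 472 BKO and 144 WT run 1 cells, and thinning to the depth of WT run 1 left 366 BKO cells. Genes higher and lower in unannotated cells numbered 860 and 237 with no minimum CPM, 549 and 235 without cells with both Trbc genes, 12 and 10 in cells under 3 G2 and M phase genes, 23 and 12 in those under 12 cell cycle genes, and 4 and 0 when these were set against annotated cells of 3000 or more genes also under 12. Against all annotated cells of 3000 or more genes, 11 were lower. Leaving out a WT run gave 371 to 381 higher and 88 to 89 lower. For BKO over WT, genes higher and lower numbered 69 and 68 with TMM scaling, 498 and 1156 with no minimum, 51 and 327 without cells with both Trbc genes, and 69 and 291 in cells under 3 G2 and M phase genes. With a pseudocount of 5 CPM 118 were lower, in cycling cells 296, and leaving out a WT run gave 42 to 71 higher and 183 to 240 lower. The share of unannotated cells with 3 G2 and M phase genes became 93.1%, 95.6% and 94.1% with 2 genes, 48.5%, 55.6% and 56.0% with 5, 97.9%, 98.0% and 99.2% at 5000 UMIs, 84.7% (BKO) and 92.4% (WT run 1) in cells of 4500 or more genes, 36.3%, 40.3% and 41.6% with 12 genes of both lists, and 41.2%, 45.8% and 45.3% with 10. The Foxp3 share became 28.0%, 32.9% and 34.1% at 5000 UMIs and 35.1%, 40.3% and 53.1% with 2 UMIs unthinned. The share with 2 B cell markers became 31.8%, 38.0% and 38.1% at 5000 UMIs and 2.92%, 3.39% and 3.20% with 3 markers. That with 2 UMIs of both Trbc genes became 83.8% (BKO) and 91.5% (WT run 2) with 1 UMI and 72.0% and 78.4% with 3. That with both Trbc genes thinned became 71.7%, 73.6% and 74.9% at 5000 UMIs and 43.3%, 47.6% and 44.8% as 3 to 7 of 10 Trbc UMIs. Thinning to 5000 UMIs left out 2056, 3001 and 595 annotated cells. The rules of 10 and 12 genes, the drawn Trbc UMIs and the cells split by them were chosen after seeing the data. The cause of these changes was not tested.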

Other observations

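Cycling cells and the other unannotated cells of BKO differed in Lgals3, a galactose-binding lectin, and Xcl1, a chemokine. Lgals3 stood at 71.4 CPM in cycling and 19.0 CPM in other BKO cells, and at 17.6 and 18.9 CPM in cycling against 26.0 and 23.0 CPM in other cells of the WT runs. Xcl1 stood at 2.03 CPM in cycling and 43.7 CPM in other BKO cells, and at 52.4 and 52.0 CPM against 32.0 and 44.8 CPM in the WT runs. These genes were picked from the named ones after their values were seen, with 298 cycling cells in BKO and 119 and 156 in the WT runs, and the differences were not tested.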
